A study of Homo sapiens with 2 samples.

Results

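The genes described here are 33 transcriptional targets of p53, taken by gene symbol from a table of 57820 genes; all 33 were found in it, and 31 reached a mean of at least 1 CPM (counts scaled to library size) over both libraries. The study compared RNA from HCT116, a human colorectal carcinoma cell line, as 1 CREB1 wild-type library and 1 CREB1 knockout library. The knockout cells were a lone clone kept after transfection with a PX461 plasmid encoding nickase Cas9 and guide RNAs against CREB1; the sources used here do not say whether the wild-type culture was also a clone. Both cultures were grown in the same serum-containing DMEM, and the labels name no DNA-damaging treatment, so the values are basal levels as far as the labels say.

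The tumour suppressor p53 is a transcription factor that is kept scarce by the ubiquitin ligase MDM2, itself a p53 target, and that accumulates after DNA damage and other stresses. It then switches on genes that halt the cell cycle, repair DNA, adjust metabolism or promote cell death, and others that shut p53 down again. HCT116 cells carry functional p53 and transcribe many of these genes at a basal level. CREB1 is a transcription factor that binds the cAMP response element (CRE), and the histone acetyltransferases CREBBP and EP300 serve as coactivators of both CREB1 and p53.

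Because the design removes a factor that binds CREs, the promoters of the target genes were read first. RefSeq promoter windows (GRCh38.p14, 250 bases before to 50 after a gene start) were found for 25 of the 33 genes, in 38 windows. None was found for FBXO22, GADD45A, RRM2B, TP53INP1, CMBL, TNFRSF10A, TNFRSF10B and PHLDA3, so the promoters of these genes were not searched. The full CRE, TGACGTCA, occurred in 1 of these 38 windows (2.63%) and in 1.85% of 35116 windows of all genes; the window was that of PPM1D. The half-site TGACG, searched on both strands and contained in the full CRE, occurred in 10 of the 38 windows (26.3%) and in 24.6% of all windows. These were windows of BTG2, DDB2, EDA2R, PLK2, POLH, PPM1D, SESN1, SUSD6, TIGAR and XPC. Whether the half-site bears on the ratio of a gene was not tested. The half-site decamer of p53 (purines, a C, a pair of A or T bases, a G, then pyrimidines) was matched without mismatch in 6 windows (15.8%), those of AEN, DDB2, FAS, FDXR, PLK2 and SESN1, and in 6.63% of all windows. Several genes have more than 1 window, and a match of letters is not evidence of binding. Bases outside the windows were not searched, so the lack of a match does not show that a gene lacks a site.

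The stretches below show chosen promoters: PPM1D for its full CRE, PLK2, TIGAR and SESN1 because they hold CRE half-sites and differed between the libraries, and FAS, AEN and FDXR for their p53 decamers. All are printed 5′ to 3′ on the gene's own strand, end before the gene start, and come from RefSeq (GRCh38.p14). Capitals mark the full CRE in PPM1D, the half-site (TGACG, or CGTCA where it lies on the other strand) in PLK2, TIGAR and SESN1, and the p53 decamer in PLK2, FAS, AEN and FDXR.
PPM1D, chr17:60600093-60600162, plus strand: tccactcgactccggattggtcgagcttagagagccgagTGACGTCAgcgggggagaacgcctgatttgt
PLK2, chr5:58460137-58460236, minus strand: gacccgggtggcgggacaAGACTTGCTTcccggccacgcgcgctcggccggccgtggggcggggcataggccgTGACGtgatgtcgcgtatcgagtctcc
TIGAR, chr12:4321103-4321172, plus strand: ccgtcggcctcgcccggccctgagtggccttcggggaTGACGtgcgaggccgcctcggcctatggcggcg
SESN1, chr6:109009593-109009732, minus strand: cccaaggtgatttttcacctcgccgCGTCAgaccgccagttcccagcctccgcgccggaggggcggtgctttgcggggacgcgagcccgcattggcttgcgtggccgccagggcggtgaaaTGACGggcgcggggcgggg
FAS, chr10:88991281-88991340, plus strand: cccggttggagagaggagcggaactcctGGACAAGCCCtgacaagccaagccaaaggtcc
AEN, chr15:88621270-88621339, plus strand: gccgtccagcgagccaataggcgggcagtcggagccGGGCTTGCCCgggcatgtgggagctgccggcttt
FDXR, chr17:74872995-74873064, minus strand: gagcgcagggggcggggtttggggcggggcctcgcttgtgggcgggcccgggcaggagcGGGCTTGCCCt
AEN and FDXR share the same decamer, 34 and 11 bases before their starts. The PLK2 decamer begins 132 bases before the start and its CRE half-site 77 bases before it. The decamers found for DDB2 lie after the gene start, and that of SESN1 lies in another of its windows, so neither is printed.

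The libraries held 34511071 (wild-type) and 31178312 (knockout) expected counts. The targeted gene CREB1 had 614 wild-type and 499 knockout counts, a log2 ratio of -0.23, and a gene-level count cannot show a small deletion, so it does not test the genotype label. The cells' labelled origin was checked on markers: of 11 colorectal epithelial genes 8 were expressed, with summed levels of 4198 and 3661 CPM. Most of these sums came from the keratins KRT8 (1822 and 1582 CPM), KRT18 (1029 and 859) and KRT19 (1036 and 948), so they do not by themselves show a colorectal origin. CDX2 had 9.72 and 9.07 CPM, while CDX1 was at 0 counts in both libraries, VIL1 had 12 and 9 counts and LGR5 0 and 3. Leukocyte markers summed to 0.297 and 0.688 CPM, with PTPRC and CD3E at 0 in both libraries. Of 3 endothelial markers 2 were found, and they summed to 0.505 and 0.532 CPM. Fibroblast markers summed to 2.62 and 2.88 CPM, mostly from COL1A1 (2.47 and 2.78 CPM), while COL1A2 was at 0 in both libraries. In RNA from whole cultures, fewer cells expressing a gene and less RNA per cell cannot be told apart.

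The 31 expressed p53 targets were transcribed in both libraries, with small differences that ran in both directions. No target gene with a mean of at least 1 CPM differed by 2-fold; the 2-fold rule held for 1.28% of all 12886 expressed genes in the higher direction and for 1.64% in the lower. A log2 ratio of at least 0.32 in size, together with a counting interval that excluded no difference, was then taken as the call. By this rule 5 of 31 targets were lower (TRIAP1, TNFRSF10A, RRM2B, CCNG1 and SESN1) and 3 were higher (PLK2, TP53I3 and TIGAR). It called 13.1% of all expressed genes lower and 14.1% higher, and 5 of 31 is 16.1% and 3 of 31 is 9.68%, so neither share of the targets stood far from the background. The median log2 ratio of the targets, knockout over wild-type, was -0.15, against 0.01 for all expressed genes, and 21 of the 31 lay below 0, against 48.8% of all expressed genes (51.2% lay above 0). With 1 library per group these differences have no replicate check, and the 95% intervals given below cover counting error only.

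**Figure D1:**
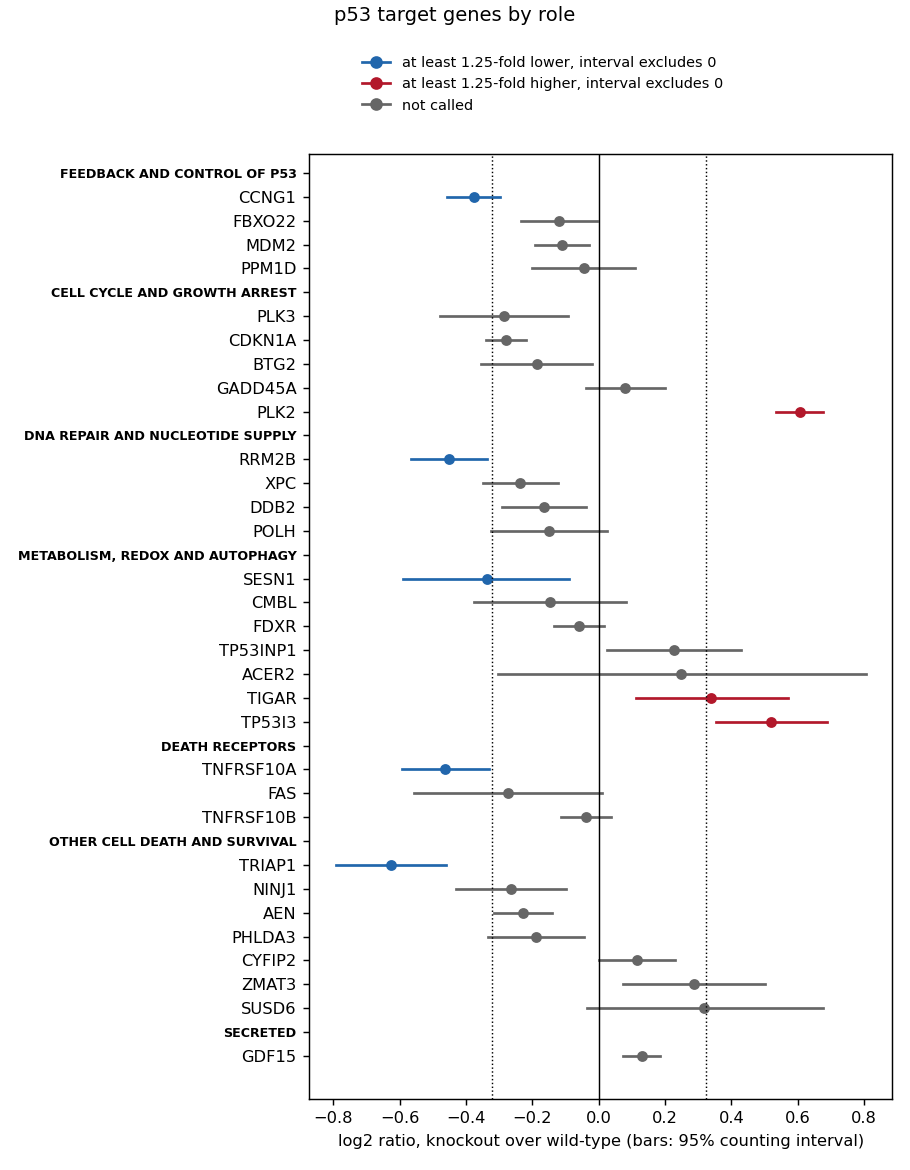
Log2 ratio (knockout over wild-type, TMM-scaled) of each of the 31 p53 target genes with a mean of at least 1 CPM, grouped by role; bars are 95% counting intervals and dotted lines mark a log2 ratio of 0.32 in either direction. Blue genes (5) were called lower and red genes (3) higher; the ratios run from -0.63 for TRIAP1 to 0.61 for PLK2.

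The calls depended in part on scaling. With total counts in place of TMM every ratio moved up by 0.07, and 3 targets were then lower (RRM2B, TNFRSF10A and TRIAP1) and 5 higher (PLK2, TP53I3, TIGAR, SUSD6 and ZMAT3), so that the balance turned, against 9.73% and 19.6% of all expressed genes. The median of the targets was then -0.07 and that of all genes 0.08.

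Among the genes that hold p53 in check, MDM2 had 2656 wild-type and 2339 knockout expected counts, or 78.9 and 73.1 CPM. Its log2 ratio of -0.11 (-0.19 to -0.03) was a difference of 1.08-fold. MDM2 was the only target with fractional counts, as reads divided between genes leave them; a processed pseudogene overlapping it on the same strand had 71.4 and 54.2 counts. PPM1D, the phosphatase WIP1 that removes activating phosphates from p53 and its kinases, had 719 and 662 counts, and its ratio of -0.05 (-0.20 to 0.11) included no difference; with total counts the ratio was 0.03. Among the targets with a promoter window, PPM1D was the only one with the full CRE. Its ratio was among those closest to 0, and 87.5% of expressed genes were as far from 0 or farther. Whether the CRE bears on this ratio was not tested. CCNG1, cyclin G1, which recruits a phosphatase to MDM2, was 1.30-fold lower, with 2993 and 2191 counts (88.9 and 68.5 CPM; log2 ratio -0.38, -0.46 to -0.30); with total counts its ratio of -0.30 missed the threshold. FBXO22, an F-box protein that helps degrade p53 in a complex with a lysine demethylase, had 1326 and 1160 counts and a ratio of -0.12. All 4 genes of this group lay below 0 with TMM scaling, as did 21 of the 31 targets and 48.8% of all expressed genes.

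The genes of growth arrest were split. CDKN1A, which encodes the cyclin-dependent kinase inhibitor p21 and is the best-known p53 target, had 4974 wild-type and 3896 knockout counts, or 148 and 122 CPM. Its log2 ratio was -0.28 (-0.34 to -0.22), a 1.21-fold difference that fell short of the threshold although its counting interval excluded 0. PLK2, a Polo-like kinase with roles in centriole duplication and the S-phase checkpoint, went the other way and was the highest of all targets at 1.52-fold, with 2757 and 3987 counts (81.9 and 124.7 CPM; log2 ratio 0.61, 0.54 to 0.68). Of all expressed genes, 4.99% had a ratio as high or higher. Its relative PLK3, a stress-responsive kinase, had 509 and 397 counts and a ratio of -0.28 (-0.48 to -0.09). BTG2, an antiproliferative protein that works with the mRNA deadenylase complex, had 646 and 539 counts and a ratio of -0.19. GADD45A, a stress sensor that binds PCNA and p21, had 1148 and 1153 counts, and its ratio of 0.08 (-0.04 to 0.20) included no difference.

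All 4 targets of DNA repair and nucleotide supply lay below 0 with TMM scaling, as did 21 of the 31 targets and 48.8% of all expressed genes. The 4 stayed below 0 under each of the other scalings, which move all ratios together and so are no independent check. Of the 4, 1 was called lower, against 13.1% of all expressed genes. RRM2B, the p53-inducible small subunit of ribonucleotide reductase that supplies deoxynucleotides for repair, was 1.37-fold lower, with 1548 and 1076 counts (46.0 and 33.6 CPM; log2 ratio -0.45, -0.56 to -0.34). The nucleotide excision repair sensors were closer to 0: XPC had 1429 and 1153 counts and a ratio of -0.24 (-0.35 to -0.12), and DDB2 had 1107 and 939 counts and a ratio of -0.16 (-0.29 to -0.04). POLH, the translesion polymerase that copies past ultraviolet lesions, had 586 and 502 counts, and its ratio of -0.15 (-0.32 to 0.02) included no difference. Exons of LSM3 (977 and 900 counts) and of other genes on the opposite strand cover 30.4% of the merged exon length of XPC; the strand setting of the counting is not given, so reads from the pair may not be separated.

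Metabolic and redox targets had the highest median of the roles with several members, 0.23 over 7 expressed genes. TP53I3, a quinone oxidoreductase linked to reactive oxygen species, was 1.43-fold higher, with 505 and 688 counts (15.0 and 21.5 CPM; log2 ratio 0.52, 0.35 to 0.69). TIGAR, a phosphatase that lowers fructose-2,6-bisphosphate and so restrains glycolysis, was 1.27-fold higher, with 291 and 350 counts (8.65 and 10.9 CPM; log2 ratio 0.34, 0.11 to 0.57), a value just past the threshold that missed it with DESeq2 size factors (0.318 against 0.322). SESN1, a sestrin that senses leucine and dampens mTORC1, was 1.26-fold lower, with 310 and 233 counts (9.21 and 7.29 CPM; log2 ratio -0.34, -0.59 to -0.09), and it was not called with total counts (-0.26). TIGAR and SESN1 both hold TGACG in the stretches printed above, and whether it bears on their ratios was not tested.

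The other metabolic targets were not called. TP53INP1, a stress protein of autophagy and p53 phosphorylation, had 384 and 427 counts and a ratio of 0.23 (0.02 to 0.43). FDXR, the mitochondrial ferredoxin reductase, was among the more abundant targets at 3025 and 2759 counts, and its ratio of -0.06 (-0.13 to 0.02) included no difference and was 0.01 with total counts. The intervals of ACER2, an alkaline ceramidase (54 and 61 counts; 0.25), and CMBL, a hydrolase (346 and 297 counts; -0.15), also included no difference. SPATA18, a factor of mitochondrial quality control, had 7 wild-type and 0 knockout counts. With the knockout set at a floor of 3 counts in that library it was at least 2.22-fold lower, from a wild-type level of 0.208 CPM; it is outside the counts above.

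The 3 expressed death receptors all lay below 0 with TMM scaling (median -0.27), as did 21 of the 31 targets and 48.8% of all expressed genes. Their ratios differed in size. TNFRSF10A, which encodes TRAIL receptor DR4, was 1.38-fold lower, with 1151 and 794 counts (34.2 and 24.8 CPM; log2 ratio -0.46, -0.59 to -0.33). TNFRSF10B, which encodes the second TRAIL receptor DR5, had 2929 and 2709 counts, a ratio of -0.04 (-0.12 to 0.04) that included no difference and was 0.03 with total counts. The intervals of the 2 receptors' ratios did not overlap. Opposite-strand noncoding genes cover 16.6% of the merged exon length of TNFRSF10A, and they had 174 and 122 counts (AC100861.1) and 15 and 1 counts (TNFRSF10A-AS1); their part in its ratio was not tested. FAS, the receptor of FAS ligand, had 239 and 188 counts, and its ratio of -0.27 (-0.56 to 0.01) included no difference at this depth. EDA2R, a receptor of ectodysplasin A2, had 1 and 2 counts, too few for a ratio.

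TRIAP1, a small mitochondrial protein that carries lipids and protects from apoptosis, was the lowest of all targets. It had 783 wild-type and 482 knockout counts, or 23.3 and 15.1 CPM, which is 1.54-fold lower (log2 ratio -0.63, -0.79 to -0.46). Of all expressed genes, 4.89% had a ratio as low or lower. AEN, a nuclease of apoptosis, had 2353 and 1909 counts and a ratio of -0.23 (-0.32 to -0.14), NINJ1, which ruptures the plasma membrane of dying cells, 685 and 542 counts and -0.26 (-0.43 to -0.10), and PHLDA3, an inhibitor of AKT, 866 and 722 counts and -0.19 (-0.33 to -0.04). These genes fell short of the threshold. A noncoding gene on the same strand covers 19.1% of the PHLDA3 exons but had only 15 and 8 counts.

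Ratios above 0 in this group belonged to genes that were also not called. ZMAT3, an RNA-binding zinc finger protein that alters splicing, had 339 and 393 counts and a ratio of 0.29 (0.07 to 0.50). SUSD6, a membrane protein, had 124 and 147 counts and a ratio of 0.32 (-0.04 to 0.68), just under the threshold before rounding. CYFIP2, a subunit of the WAVE actin regulatory complex, had 1234 and 1271 counts and a ratio of 0.12 (0.00 to 0.23). Exons of ADAM19 (2679 and 4144 counts) and of other genes on the opposite strand cover 4.64% of the merged exon length of CYFIP2. Their part in its ratio was not tested. Among secreted factors, GDF15, a stress-induced cytokine of the TGF-beta superfamily, had 5183 and 5387 counts and a ratio of 0.13 (0.07 to 0.18). It differed by 1.09-fold and was the most abundant target in both libraries, at 154 and 168 CPM.

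Levels were compared between genes per kilobase of merged exon. In the wild-type library GDF15 stood first at 73.8 CPM per kilobase, followed by CDKN1A at 48.5, CCNG1 at 28.7, FDXR at 24.98 and PLK2 at 17.2. The same 5 genes were the top 5 of the knockout library, where PLK2 stood in place 3 at 26.1 CPM per kilobase and CCNG1 in place 5 at 22.1. The lowest expressed targets were ACER2 at 0.717 and SUSD6 at 0.632 CPM per kilobase in the wild-type library. MDM2 was in the middle of the order at 5.94 CPM per kilobase, over a merged exon length of 13.3 kilobases. Such a length joins all annotated exons of a gene and can exceed that of its expressed transcripts. The order between genes therefore depends in part on the annotation. In 19 of the 30 neighbouring pairs of the wild-type order, the counting intervals overlapped, such as those of PLK2 with TNFRSF10B and of AEN with TNFRSF10A. Between the libraries 12 genes changed place, and the widest move was that of TP53I3, from place 17 to place 10.

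**Figure D2:**
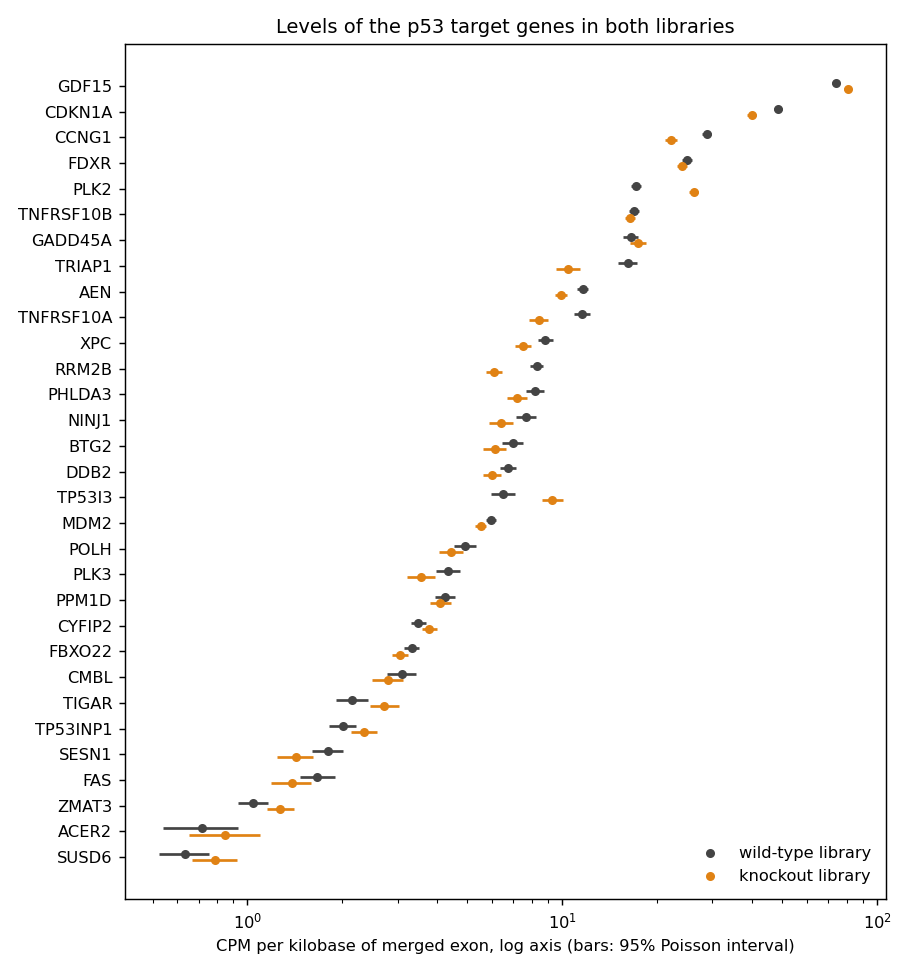
Level of each of the 31 p53 target genes in CPM per kilobase of merged exon (log axis) in the wild-type (grey) and knockout (orange) library, with 95% Poisson intervals, ordered by the wild-type level. Levels span from 73.8 for GDF15 to 0.632 for SUSD6 in the wild-type library, and the points of most genes lie close together.

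The chromosomal surroundings of the targets were compared next. For each target, the median log2 ratio of the 50 nearest expressed protein-coding genes was taken in the gene order of GRCh38. These medians lay between -0.06 (near CMBL) and 0.11 (near PLK3). A median of 50 genes varies less than a single gene, so it is given as a description of the region and not as a test of a target's ratio. For the called genes the neighbourhood medians were 0.00 for TRIAP1, -0.02 for TNFRSF10A, -0.03 for RRM2B, -0.06 for CCNG1, -0.04 for SESN1, 0.01 for PLK2, -0.02 for TP53I3 and -0.04 for TIGAR.

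**Figure D3:**
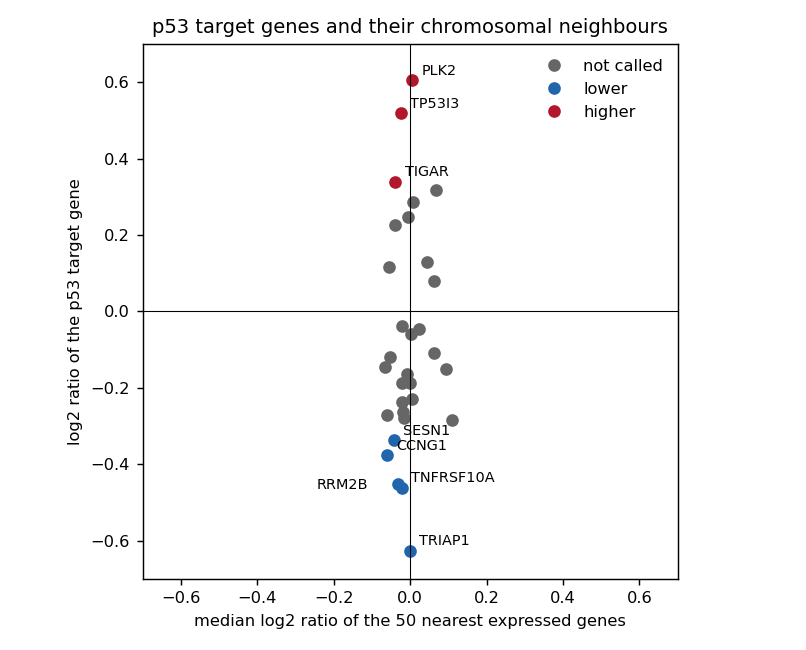
Log2 ratio of each of the 31 expressed p53 target genes (vertical) against the median log2 ratio of the 50 nearest expressed protein-coding genes (horizontal), on equal axes; blue and red genes were called lower and higher. Neighbourhood medians lie between -0.06 and 0.11 and single targets between -0.63 and 0.61; a median of 50 genes spreads less than single genes by construction.

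Other genes of the pathway were taken from lists. Of 74 further p53-activated genes, 73 were in the table and 66 were expressed. Of these, 7 were lower and 11 higher by the rule for calls, with a median log2 ratio of -0.01 (0.06 with total counts). These are 10.6% and 16.7% of the list, against 13.1% and 14.1% of all expressed genes. The 2 that passed 2-fold were CDIP1, a pro-apoptotic membrane protein, which was lower (140 and 47 counts; -1.49, -2.01 to -1.01), and ALOX5, the leukotriene-forming lipoxygenase, which was higher from a low level (36 and 99 counts; 1.52, 0.97 to 2.13). The cytokine LIF had 1994 and 3510 counts (0.89) and the tetraspanin CD82 202 and 114 counts (-0.75). Among 32 expressed p53 regulators, 3 were lower (9.38%) and 6 higher (18.8%), against the same 13.1% and 14.1%, with a median of 0.07. The members of that list farthest from 0 were the coactivator CREBBP (299 and 497 counts; 0.81, 0.60 to 1.02), the kinase HIPK2, which phosphorylates p53 (584 and 931 counts; 0.75), and the p53 relative TP73 (202 and 317 counts; 0.72).

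Active p53 lowers many cell cycle genes through p21 and the DREAM repressor complex. Of 38 such genes, all expressed, 7 were lower (18.4%) and 1 higher (2.63%) by the same rule, against 13.1% and 14.1% of all expressed genes. The median was -0.07, and 0.00 with total counts. The survivin gene BIRC5 (4944 and 2658 counts; -0.82), the mitotic kinase AURKB (1791 and 1126 counts; -0.60), E2F1 (880 and 612 counts; -0.45) and the centromeric histone CENPA (566 and 396 counts; -0.44) were farthest from 0.

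**Figure D4:**
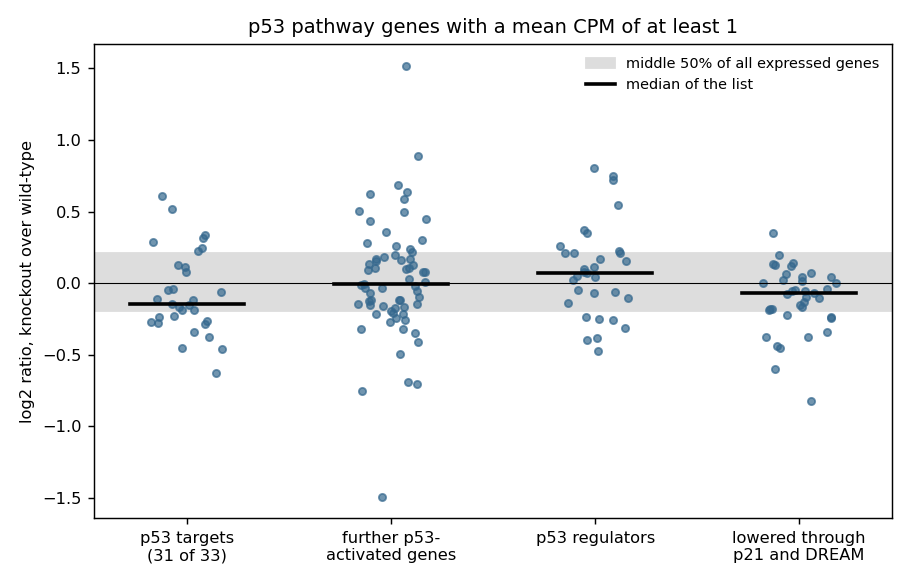
Log2 ratio (knockout over wild-type) of single genes with a mean of at least 1 CPM in the p53 target genes described here, the further p53-activated genes, the p53 regulators and the genes lowered through p21 and DREAM; black bars are list medians (-0.15, -0.01, 0.07 and -0.07) and the grey band holds the middle 50% of all expressed genes. Horizontal scatter within a list carries no value.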

How the data were processed

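The authors deposited expected counts per gene (estimated reads, not scaled) for 2 libraries. The tools named in the submitters' processing notes are RSEM 1.2.26, STAR 2.4.2a and cutadapt 2.0, and the build is hg19. Annotation release, strand setting and filters: not given in the sources used here. Gene names came from a table of gene identifiers and GENCODE release 29 (GRCh38), which named 90.5% of identifiers; 37.0% of wild-type and 35.2% of knockout counts lay in unnamed identifiers and stayed in the totals. Exon lengths and gene order came from GENCODE 29.

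Counts were rounded and scaled by TMM (edgeR 4.0.16, R 4.3.3), and log2 ratios used a prior count of 0.5. The 95% interval of a ratio is exact (Clopper-Pearson, from the 2 counts). A gene with a mean of at least 1 CPM was called when that interval excluded no difference and its log2 ratio reached 0.32 in size; a 2-fold rule was also used; no p-value exists with 1 library per group. Alternatives were total-count, upper-quartile and DESeq2 1.42.0 scaling, filters of none or 5 CPM, a prior count of 2 and the mean. Every target was to be described; in other lists, genes past 2-fold and up to 4 farthest from 0. The members and lists were chosen with earlier results of these data known. The transcript of p53 itself is not reported here.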

Additional observations from a re-analysis of the deposited data

How the results depend on the processing

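The median log2 ratio of the p53 targets stayed between -0.17 (DESeq2 size factors) and -0.07 (total counts, or the mean in place of the median) over the alternatives run. The counts of called targets moved by over 1.5 times with total-count scaling, to 3 lower and 5 higher; DESeq2 size factors gave 5 lower and 2 higher, and upper-quartile scaling and the filter at 5 CPM gave 5 and 3. Without the filter on low counts, 1 target passed the 2-fold rule in the lower direction, SPATA18 with only 7 and 0 counts. PPM1D, FDXR and TNFRSF10B changed sign with total counts, and no called target did so in any scaling run. With total counts the ratios of CDKN1A (-0.21), PLK2 (0.68) and GDF15 (0.20) left their counting intervals. No paired analysis was possible because each group has 1 library. At this depth the intervals of FAS, ACER2 and SUSD6 were wide and, with TMM scaling, included no difference. Their TMM ratios also fell short of the threshold.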
